A study of Mus musculus with 4 samples.

Results

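The regulatory factor X (RFX) transcription factors and the partners of RFX5 were examined in embryonic mouse retina. The set was defined by gene symbol as Rfx1, Rfx2, Rfx3, Rfx5, Rfx7, Rfxap and Rfxank, and these 7 genes were all found among the 18471 genes of the count table. RNA was sequenced from single retinas of individually genotyped embryos at embryonic day 19. There were 2 libraries labelled wild-type and 2 labelled Foxn3KO. The latter come from embryos with the genotype Foxn3-/-, in which exon 3 of Foxn3, a forkhead factor gene, is deleted (line C57BL/6NJ-Foxn3em1(IMPC)Bay/Mmnc). The mutation is in the germline, so every tissue of these embryos carries it. The strain of the wild-type embryos and any agent given were not stated. The study, by its title, places Foxn3 in a network that controls primary cilia.

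RFX proteins share a winged-helix DNA-binding domain that recognises the X-box, an inverted repeat first described in the promoters of MHC class II genes. The family has arms with separate textbook roles. Rfx1, Rfx2 and Rfx3 carry a dimerisation domain and regulate genes needed to build cilia, often together with the forkhead factor Foxj1. Rfx5 instead forms a complex with the unrelated proteins Rfxap and Rfxank. This complex sits on MHC promoters with NF-Y and CREB, and its loss causes an inherited immunodeficiency called bare lymphocyte syndrome. Rfx7 resembles Rfx5 in sequence, lacks the dimerisation domain, and has been described as acting downstream of p53.

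Promoters of the ciliogenic members were compared first because all 3 hold GTTGCC, an arm of the X-box. Promoter sequences, from 250 bases before to 50 bases after the transcript start, came from RefSeq (build GRCm38.p6) and were found for 6 of the 7 members, all but Rfxap. The stretches below run 5′ to 3′ on the gene's strand, with GTTGCC in capitals. That of Rfx1 is on the plus strand of chr8:84066825-84066854, that of Rfx2 on the minus strand of chr17:56831095-56831148 and that of Rfx3 on the minus strand of chr19:28011118-28011147.
Rfx1: tgggtagcaacaGTTGCCccggtgagggaa
Rfx2: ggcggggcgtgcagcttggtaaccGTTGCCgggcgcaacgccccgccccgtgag
Rfx3: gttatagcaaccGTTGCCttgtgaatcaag

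The GTTGCC of Rfx2 begins 116 bases before the start site. Those of Rfx1 and Rfx3 begin at bases 2 and 32 of the transcript. On either strand, GTTGCC was present in 12.5% of 32851 promoters of the same length. An arrangement of GCAAC, 1 free base and GTTGCC was present in 10 of them, including those of Rfx1 and Rfx3. In the Rfx2 stretch, GTTGCC follows GTAAC and 1 base, which differs from that arrangement by 1 letter. GCAAC itself comes after GTTGCC there, at a wider spacing that was not searched for. GTTGCC and the arrangement with GCAAC were both chosen after the sequences had been seen, so these counts are a description. A looser form of the whole X-box, GTNNCC with 3 free bases and GNNAC after it, matched 4.62% of promoters and, among the members, only that of Rfx2, from base 35 of its transcript. The forkhead motifs TGTTTAC and TGTTTGC matched 3.65% and 5.07% of promoters and no member's. GACGC, a motif described for Foxn-type factors, matched 27.2% of promoters, among them those of Rfx3 and Rfx7. The promoters of Rfx5 and Rfxank held none of these letters.

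Total counts ranged from 22543531 to 29360129 per library. The targeted gene, Foxn3, had 2421 and 2712 counts in the wild-type-labelled libraries and 4181 and 3219 in the Foxn3KO-labelled ones. It was therefore higher where it is labelled knocked out, and gene counts do not resolve exon 3, so groups are named by their labels and each direction rests on them. Wild-type replicate 1 stood apart in sex-linked transcripts, with 83073 counts of Xist against 9 to 19 in the other libraries and 0 of Ddx3y. Lens markers differed as well: the summed level of 7 lens genes was 4.11 and 56.8 CPM (counts scaled to library size with TMM factors) in wild-type replicates 1 and 2 and 197 and 193 CPM in the Foxn3KO-labelled libraries, and edgeR called all 7 higher, where it called 12.3% of all tested genes higher and 9.66% lower. DESeq2 called 2 of these 7. Crygs was at 0 counts in wild-type replicate 1. Of 14 retinal genes, 3 were called higher and 2 lower (0 and 1 without either Foxn3KO-labelled library), with summed levels of 3840 to 4020 CPM in all 4 libraries, so the labelled tissue is well represented. Pigment epithelium genes had 4 of 7 called lower (6 without wild-type replicate 1, but 2 when replicate 2 of that group was dropped), choroid plexus and ependymal genes 2 of 6 higher and 2 lower, and vessel and mesenchymal genes 1 of 6 higher, with calls in these 2 lists moving by 1 at most when 1 library was left out. A gene shared by the pigment epithelium and choroid plexus lists was called lower and is counted in each. The part of sex, lens or other tissue in the differences below was not tested, and members are also given without wild-type replicate 1. In such bulk samples fewer cells of a type and less RNA per cell cannot be told apart.

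Members were compared between genotypes with edgeR's quasi-likelihood test, adjusted by Benjamini-Hochberg over 17300 tested genes, with a threshold of 0.05. All 3 ciliogenic members rose in the Foxn3KO-labelled libraries, where 12.3% of all tested genes were called higher. Rfx7 fell slightly, where 9.66% of all genes were called lower. None of the 3 members of the RFX5 complex was called, against 21.9% of all genes called in either direction, although 2 of them had an unadjusted p under 0.05. DESeq2 and limma-voom also called 0 of these 3.

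**Figure D1:**
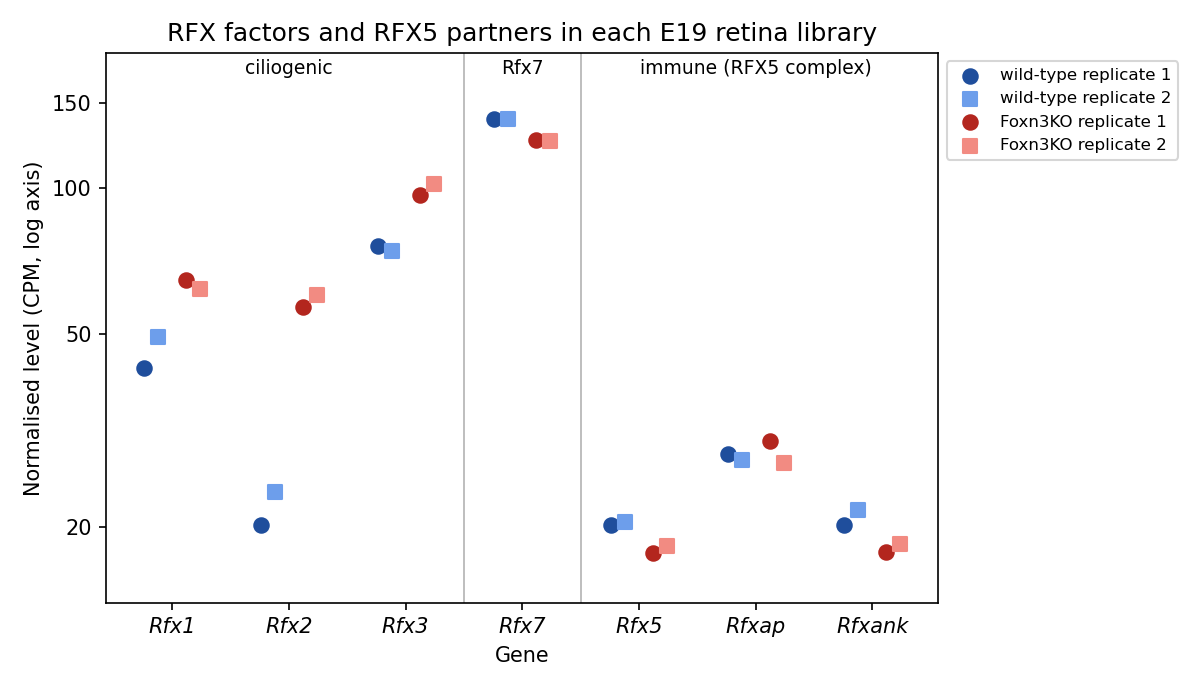
Level of each member in each library in CPM (log axis), with circles for replicate 1 and squares for replicate 2, blue for wild-type and red for Foxn3KO. The red points of Rfx1, Rfx2 and Rfx3 lie above the blue ones, those of Rfx7, Rfx5 and Rfxank lie below by smaller steps, and those of Rfxap lie on both sides.

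Rfx2, a driver of ciliogenesis best known from testis and multiciliated epithelia, changed most among the members. It had 502 and 645 counts in the wild-type-labelled libraries and 1659 and 1349 in the Foxn3KO-labelled ones, or 20.2 and 23.7 against 57.0 and 60.2 CPM. The groups were far apart and the wild-type libraries differed from each other by a few CPM only. The log2 fold change was 1.41 (SE 0.075), a 2.66-fold rise with a 95% interval of 2.38 to 2.97 (edgeR adjusted p = 1.19e-10). Among the 17300 tested genes its p ranked 138 from the smallest and its rise 374 from the largest. No annotated gene overlaps Rfx2 in the GENCODE annotation of mouse (release for GRCm38).

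Rfx1, a broadly expressed family member that binds X-boxes as a homodimer or with its relatives, rose less. It had 1060 and 1342 counts against 1881 and 1390, or 42.7 and 49.4 against 64.6 and 62.1 CPM. The higher wild-type library still lay below the lower Foxn3KO-labelled library. The log2 fold change was 0.46 (SE 0.067), or 1.37-fold with a 95% interval of 1.25 to 1.52 (edgeR adjusted p = 6.15e-05). Wild-type replicate 1 held the lowest level of both Rfx1 and Rfx2, and without it the log2 fold changes were 0.363 and 1.30. An antisense transcript that overlaps Rfx1, C330011M18Rik, had 54 and 64 counts against 207 and 142, a log2 fold change of 1.57 (edgeR adjusted p = 3.34e-06). Whether the counts used strand was not stated, so reads of Rfx1 and this transcript cannot be told apart where they overlap. Antisense transcripts are also annotated over Rfx3, Rfx7 and Rfx5. The one over Rfx5 had 8 and 3 counts against 20 and 6, and those over Rfx3 and Rfx7 were not analysed here.

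Rfx3, whose loss in mice is known to stunt nodal cilia, had a rise close to that of Rfx1. It had 1887 and 2017 counts against 2817 and 2276, or 76.1 and 74.2 against 96.7 and 102 CPM. The replicates lay close together and the groups did not overlap. Its log2 fold change was 0.40 (SE 0.051), or 1.32-fold with a 95% interval of 1.22 to 1.42 (edgeR adjusted p = 1.35e-05).

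Rfx7 had 3455 and 3769 counts in the wild-type-labelled libraries and 3660 and 2791 in the Foxn3KO-labelled ones. Scaled to depth this was 139 CPM in both wild-type libraries against 126 and 125 CPM. Replicates were nearly equal within each group, and the groups were apart by a small step relative to the level itself. The difference was -0.15 on the log2 scale (SE 0.045), a change of -9.97% with a 95% interval of -15.7% to -3.86% (edgeR adjusted p = 0.0217). This call was not held by DESeq2 (adjusted p = 0.065), nor by edgeR without Foxn3KO replicate 1 (adjusted p = 0.191) or without Foxn3KO replicate 2 (adjusted p = 0.241).

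On the log2 scale, Rfx5 and Rfxank had estimates of -0.18 and -0.21, against -0.15 for Rfx7. None of the 3 genes of the RFX5 complex passed the threshold in the main fit. Rfx5, its DNA-binding subunit, had 500 and 558 counts in the wild-type-labelled libraries and 515 and 410 in the Foxn3KO-labelled ones, or 20.2 and 20.5 against 17.7 and 18.3 CPM. Both Foxn3KO-labelled libraries lay below both wild-type-labelled ones, but the estimated difference of -11.6% had a 95% interval of -21.8% to -0.166% and an edgeR adjusted p of 0.143. Rfxank, the ankyrin-repeat subunit, had 500 and 590 counts against 519 and 415, or 20.2 and 21.7 against 17.8 and 18.5 CPM. Its difference was -13.3% with a 95% interval of -23.4% to -1.84% (edgeR adjusted p = 0.095). Without wild-type replicate 1 it passed, at -0.258 on the log2 scale (edgeR adjusted p = 0.0391), in a fit that called 24.3% of all tested genes. Rfxank overlaps Nr2c2ap on the opposite strand, whose log2 fold change was 0.12 (edgeR adjusted p = 0.401). Rfxap, the third subunit, had 702 and 750 counts against 878 and 606, or 28.3 and 27.6 against 30.2 and 27.1 CPM. Here the groups overlapped, and the estimated change of 2.45% had a 95% interval of -8.22% to 14.4% (edgeR adjusted p = 0.791). Rfx5 and Rfxank were measured with 410 to 590 counts per library. Their lower bounds of -21.8% and -23.4% show how large a fall still lies within the intervals. The parts of depth and of variation between embryos in these widths were not tested.

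**Figure D2:**
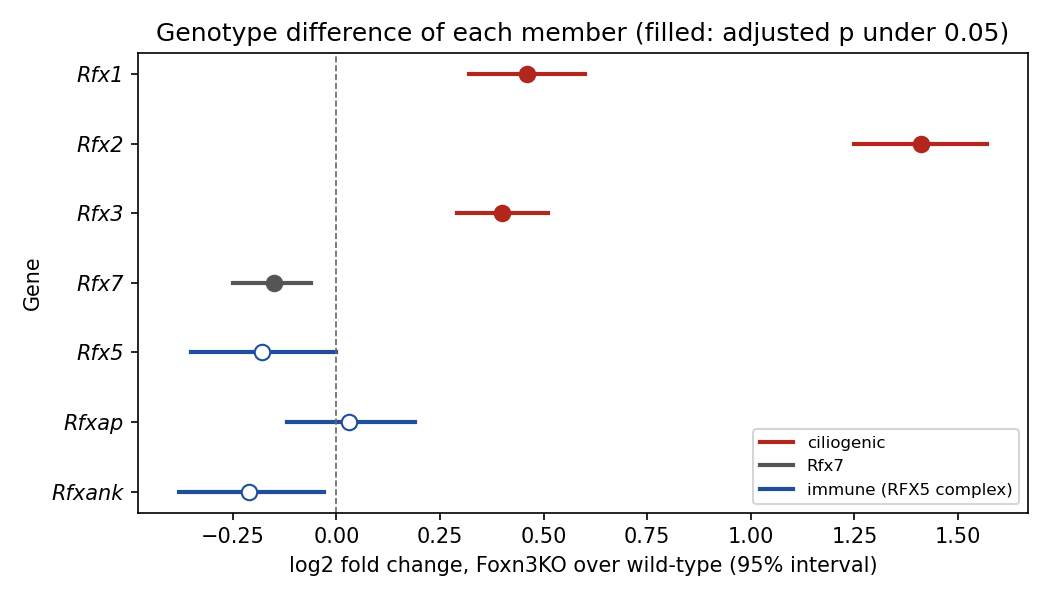
Log2 fold change of each member, Foxn3KO over wild-type, with 95% intervals from the edgeR fit (not adjusted for the number of genes), coloured by role and filled where the adjusted p is under 0.05. The intervals of the ciliogenic members begin at 0.29 or above, while those of the RFX5 complex end at 0.19 or below.

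Placed side by side, the ciliogenic members had log2 fold changes of 0.40 to 1.41 and the immune members of -0.21 to 0.03. The lowest bound of a 95% interval among the ciliogenic members was 0.29 and the highest bound among the immune members was 0.19. CPM ranges of the groups did not overlap for 6 of the 7 members, which was also the case for 60.4% of all tested genes, so the lack of overlap by itself sets none of them apart. Without wild-type replicate 1, log2 fold changes were 0.417 for Rfx3, -0.147 for Rfx7, -0.192 for Rfx5 and 0.0613 for Rfxap, each on the same side of the threshold as with it.

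A ratio within a library does not depend on how libraries are scaled. The summed counts of Rfx1, Rfx2 and Rfx3 were 2.03 and 2.11 times those of Rfx5, Rfxap and Rfxank in the wild-type-labelled libraries, and 3.32 and 3.50 times in the Foxn3KO-labelled ones. On the log2 scale these ratios were 1.02, 1.08, 1.73 and 1.81. With counts taken per gene length (summed FPKM) the ratios were 0.763 and 0.82 against 1.26 and 1.35, so that the ciliogenic sum lay below the immune sum in the wild-type-labelled libraries and above it in the Foxn3KO-labelled ones. Leaving Rfx2 out, the log2 ratios of Rfx1 and Rfx3 to the immune members were 0.79 and 0.82 against 1.30 and 1.36. The shift in balance was therefore present with and without the member that changed most. No test was made on these ratios, since the members were chosen with results of these data known.

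Within the ciliogenic group the mix also changed. The following ratios are of counts, not corrected for gene length, and serve to compare libraries. For every 100 counts of Rfx3 there were 26.6 and 32.0 of Rfx2 in the wild-type-labelled libraries and 58.9 and 59.3 in the Foxn3KO-labelled ones. Against 100 counts of Rfx1, Rfx2 had 47.4 and 48.1, then 88.2 and 97.1. Rfx1 relative to Rfx3 did not separate the groups, with 56.2 and 66.5 against 66.8 and 61.1 per 100. In the RFX5 complex, Rfxank stood at 100 to 106 counts per 100 of Rfx5 in all 4 libraries. Rfxap stood at 140 and 134 per 100 of Rfx5, then at 170 and 148.

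Levels of different genes were compared per gene length, with the authors' FPKM (fragments scaled to gene length and library size). In the libraries labelled wild-type, Rfxap was highest at 12.3 to 12.6 FPKM, with Rfx7 next at 9.10 to 9.13. Rfx1 (6.61 to 7.66) and Rfx3 (6.71 to 6.86) came next and overlapped each other. Rfxank (5.06 to 5.46), Rfx5 (3.65 to 3.72) and Rfx2 (2.76 to 3.24) followed without overlap, so Rfx2 was the lowest member. In the Foxn3KO-labelled libraries the order was Rfxap (12.04 to 13.41 FPKM), Rfx1 (9.625 to 10.02), Rfx3 (8.74 to 9.19), Rfx7 (8.18 to 8.25), Rfx2 (7.77 to 8.22), Rfxank (4.48 to 4.66) and Rfx5 (3.21 to 3.32). Only Rfx7 and Rfx2 overlapped there. Rfx2 had thus passed both Rfx5 and Rfxank.

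**Figure D3:**
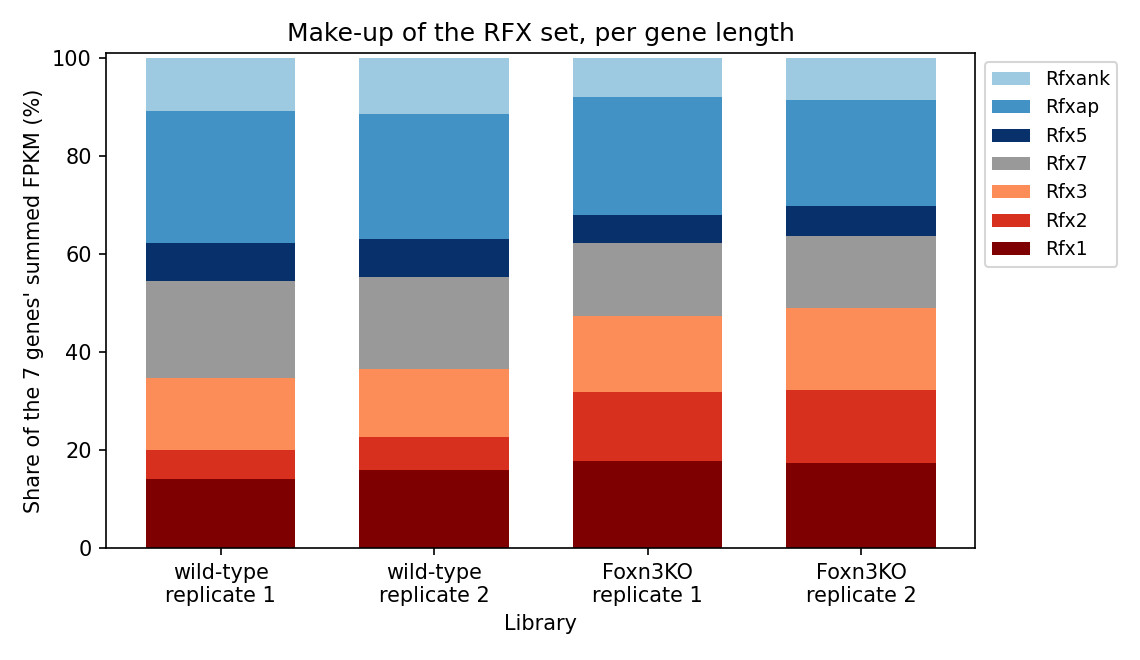
Share of each member in the summed FPKM of the 7 genes, 1 bar per library, with reds for ciliogenic members, grey for Rfx7 and blues for the RFX5 complex. Rfx2 takes 5.91% and 6.72% in the wild-type-labelled libraries and 13.9% and 14.9% in the Foxn3KO-labelled ones.

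As a share of the summed FPKM of the 7 genes, the ciliogenic members held 34.8% and 36.5% in the wild-type-labelled libraries and 47.5% and 48.9% in the Foxn3KO-labelled ones. The immune members held 45.6% and 44.6%, then 37.8% and 36.2%. The sum itself was 46.6 and 48.2 FPKM against 55.9 and 55.2, and the immune members' own sum was 21.27, 21.46, 21.1 and 20.02 FPKM in the 4 libraries.

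Genes described in other systems as RFX targets in cilia were listed next: transport, Bardet-Biedl and dynein genes together with Foxj1, the forkhead factor of motile cilia. All 17 were called higher in the Foxn3KO-labelled libraries, against 12.3% of all tested genes, with a median log2 fold change of 0.88 against -0.0047 over all tested genes. With 1 library left out, the call was made for 17 without wild-type replicate 1, and for 16 without replicate 2 of either group. Without Foxn3KO replicate 1, 14 were called: Bbs4 (0.231, edgeR adjusted p = 0.073), Ift140 (0.238, edgeR adjusted p = 0.0538) and Alms1 no longer passed. This list was written with earlier results of these data known, so its direction is not independent evidence. Foxj1 had 191 and 226 counts against 5154 and 3914, and a log2 fold change of 4.45 (edgeR adjusted p = 1.61e-18). The genes with the next smallest p were the outer-arm dynein genes Dnah9, with a log2 fold change of 4.11, and Dnah11 with 2.51, the transport subunit gene Ift122 with 1.16 and Wdr35, another subunit of the same transport complex, with 1.03. The largest edgeR adjusted p among these was 2.76e-11. Dnah5, another outer-arm dynein gene, had 3.20 with a larger edgeR adjusted p of 8.02e-08. Alms1, a basal body gene, had the smallest difference of the list, 0.17 (edgeR adjusted p = 0.0442). It was not called by DESeq2 (adjusted p = 0.124), under total count scaling (0.0753) or by the earlier edgeR fit (0.0516), nor by edgeR without wild-type replicate 2 (0.132), Foxn3KO replicate 1 (0.368) or Foxn3KO replicate 2 (0.0722). Of the 14 listed genes that have a RefSeq promoter, 8 held GTTGCC (12.5% of all promoters), 10 held GACGC (27.2%), 4 the looser X-box (4.62%) and 0 either forkhead motif. These are counts of genes with a match in any of their promoters, while the shares are of single promoters. GTTGCC was also found for 3 of 6 multiciliation regulators listed next, and for 3 of 8 and 2 of 8 genes of the MHC class I and class II lists. It was found for 0 of 10 genes described as RFX7 targets, of which 9 held GACGC.

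**Figure D4:**
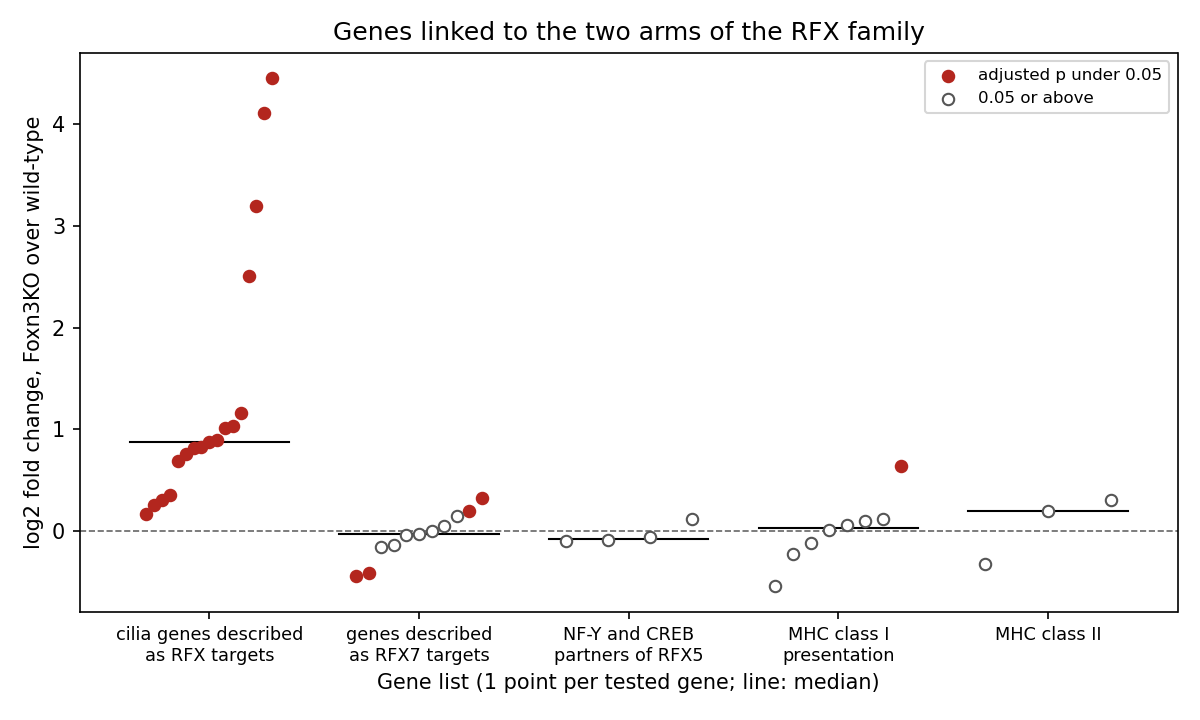
Log2 fold change, Foxn3KO over wild-type, of every tested gene in 5 lists, with filled red points for an adjusted p under 0.05 and a line at each list's median. The cilia genes all lie above 0 with a median of 0.88, while the medians of the lists linked to Rfx7 and the RFX5 complex lie between -0.08 and 0.20.

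Regulators that act above or beside RFX factors in multiciliated cells had 2 of 7 tested genes called higher and 0 lower, where 12.3% and 9.66% of all tested genes were, and a median log2 fold change of -0.03. The called genes were Foxj1 and Ccno, a cyclin-like gene needed to multiply centrioles. Ccno had 40 and 27 counts against 342 and 249, a log2 fold change of 3.14 (edgeR adjusted p = 6.89e-10). E2f5 had 0.18 (edgeR adjusted p = 0.0621), Tfdp1 -0.10 (edgeR adjusted p = 0.128) and E2f4 -0.05 (edgeR adjusted p = 0.52). E2f5 passed with a filter of 10 counts in each library (adjusted p = 0.048), with the replicate block (0.0449) and without wild-type replicate 1 (0.0108), and Tfdp1 passed without wild-type replicate 2 (0.017). Gmnc and Mcidas, the geminin relatives that start this programme, were not analysed here.

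MHC class II genes, the classical targets of the RFX5 complex, were present at a low level. The list was represented by 4 of 11 genes with a summed level of 8.52 to 9.20 CPM, and Cd74, Ciita and 5 others were not analysed here. None of the 3 tested genes was called by edgeR, DESeq2 or limma-voom, and 0 had an unadjusted p under 0.05, with no adjusted p given by DESeq2 for H2-Eb1. H2-Ab1 had 134 and 139 counts against 121 and 96, a log2 fold change of -0.32 with a 95% interval of -0.66 to 0.02 (edgeR adjusted p = 0.181). H2-DMa had 0.31 (edgeR adjusted p = 0.267) and H2-Eb1 0.20 (edgeR adjusted p = 0.843), which ranged from -0.362 to 1.25 with 1 library left out. Their median was 0.20, and -0.28 without wild-type replicate 1. As a measure of the cells that usually carry MHC class II, the summed level of 11 microglial and macrophage genes was 25.2 and 25.4 CPM against 29.5 and 30.7. None of those 11 was called by edgeR, limma-voom or DESeq2, which gave no adjusted p for 4 of them, and 1 had an unadjusted p under 0.05. Csf1r was called without wild-type replicate 2. Of 6 dendritic and B cell markers, Flt3 alone was represented, with 3 to 8 counts per library.

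MHC class I presentation genes, which the same complex serves together with Nlrc5, had a median of 0.03 over 8 tested genes. H2-K1 was called higher, with 142 and 179 counts against 309 and 190 and a log2 fold change of 0.64 (edgeR adjusted p = 0.00353), where 12.3% of all tested genes were. Without Foxn3KO replicate 1 it did not pass (0.461, edgeR adjusted p = 0.0867). B2m, the common light chain, had -0.22 (edgeR adjusted p = 0.129) and H2-D1 -0.12 (edgeR adjusted p = 0.429). Both values moved with single libraries. B2m ranged from -0.0402 without Foxn3KO replicate 1 to -0.417 without Foxn3KO replicate 2 (edgeR adjusted p = 0.0053), and was also called without wild-type replicate 1 (edgeR adjusted p = 0.02). H2-D1 ranged from -0.281 without wild-type replicate 2 (edgeR adjusted p = 0.00697) to 0.0715 without wild-type replicate 1. Tap2 and Tapbp, of the peptide-loading machinery, had -0.54 (edgeR adjusted p = 0.273) and 0.06 (edgeR adjusted p = 0.69). Class I genes are close relatives, so reads may have been divided between H2-K1 and H2-D1 in ways that cannot be checked here. The promoter partners Nfya, Nfyb, Nfyc and Creb1 had log2 fold changes of -0.06, -0.09, 0.12 and -0.10. None of these 4 was called by edgeR, DESeq2 or limma-voom, and 1 had an unadjusted p under 0.05. Without wild-type replicate 2, Nfyc was called higher and Creb1 lower.

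Genes described as RFX7 targets in human cells went both ways. Of 11 tested, 2 were called higher and 2 lower, where 12.3% and 9.66% of all tested genes were, and the median was -0.03. Abat, which breaks down GABA, rose with a log2 fold change of 0.33 (edgeR adjusted p = 0.000111), and Tob1, an anti-proliferative gene, with 0.20 (edgeR adjusted p = 0.0223). Tob1 did not pass in DESeq2 (adjusted p = 0.105), nor in edgeR without Foxn3KO replicate 1 (adjusted p = 0.247) or Foxn3KO replicate 2 (adjusted p = 0.0772). Klf9 fell by 0.41 (edgeR adjusted p = 0.000704) and Pik3ip1, an inhibitor of PI3-kinase, fell by 0.44 (edgeR adjusted p = 0.000878). Pdcd4 had 0.15 (edgeR adjusted p = 0.06). Without wild-type replicate 1, 3 were called in each direction, with Pdcd4 and Pnrc1 added. Under total count scaling 2 were called higher and 4 lower.

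Among the other family genes, Rfx8 was at the limit of detection with 10 and 6 counts against 15 and 7 (edgeR adjusted p = 0.628), and Rfx4 and Rfx6 were not analysed here. The genes whose profile over the 4 libraries was most like that of Rfx2, by Euclidean distance between centred log2 CPM among 14925 genes that averaged at least 1 CPM, were Lrrc73 (0.0636), Pdgfa (0.0815) and Elmod1 (0.0815). Pdgfa, a platelet-derived growth factor gene, had 5.44 and 6.04 CPM against 15.7 and 16.0. With 4 libraries in 2 groups such likeness mostly restates a similar fold change, here 1.43, 1.46 and 1.45 on the log2 scale.

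The authors' deposited table lists Rfx2 at 1.40 on the log2 scale, adjusted p 3.25e-41. In the authors' deposited table Rfx1 has 0.44, Rfx3 0.39, Rfx7 -0.14, Rfx5 -0.15, Rfxap 0.03 and Rfxank -0.17. Of the 7 members, Rfx1, Rfx2 and Rfx3 have an adjusted p under 0.05 in the authors' deposited table, and Rfx7 has 0.065. For all 7 members these adjusted p-values equal those of the DESeq2 alternative run here, so they are not separate evidence. The log2 fold changes are not all the same, with -0.15 deposited for Rfx5 against -0.177 from DESeq2 here.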

How the data were processed

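RNA sequencing libraries came from retinas of individual embryos, made per the labels' protocols from 500 ng of total RNA with a strand-specific kit and adaptors carrying molecular identifiers. The authors deposited 1 table with whole-number counts per gene and library, without normalization, and with FPKM values. The mean signal, the log2 fold change, its standard error (a score column) and the p-values per gene were also deposited by the authors. Build mm39 and DESeq2 are named, without a role, per the submitters' processing notes; aligner, counter, annotation, strand use and duplicate removal are not given in the sources used here. No gene of the table had fewer than 16 counts in all 4 libraries together.

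A repeated identifier was dropped, leaving 18471 genes; filterByExpr kept 17300. After TMM scaling, genotype was tested by the two-sided quasi-likelihood F test of edgeR 4.0.16 (R 4.3.3, new fit set explicitly, no other term), and p-values were adjusted over all 17300 by Benjamini-Hochberg. Standard errors derive from the fold change and F. FPKM served for levels between genes, and for the sums, ratios, shares and positions drawn from them. These were set side by side between libraries, and no test used FPKM. Alternatives were DESeq2 1.42.0, limma-voom (limma 3.58.1), the earlier edgeR fit, RLE factors, total count scaling, no filter, a filter of 10 counts in each library, a replicate block, and dropping 1 library at a time; in the last case the lone library of a group is assumed to vary like the other group. Replicate numbers are not stated to pair the embryos and were not used as pairs in the main fit. With 2 embryos per group, p-values rest on little replication. The spread also differed between the groups. A chi-square per gene, which measures how far the counts of 2 libraries differ, averaged 10.1 between the wild-type-labelled libraries. It averaged 1.89 between the Foxn3KO-labelled ones, and its part in the calls with 1 library left out was not tested. Members, lists and rules were chosen with earlier results of these data known. Named were all members, Foxn3, up to 5 genes of each list by smallest p, and the 3 genes nearest to Rfx2 in profile; Alms1, Bbs4, Ift140, Dnah5, Csf1r, Pnrc1, Crygs, C330011M18Rik, Nr2c2ap, Flt3 and the sex-linked genes were named after their values were seen. Promoter letters came from RefSeq (GRCm38.p6). Interval limits come from the standard errors of the edgeR fit, at low counts as well, and so rest on 2 embryos per group. Figures were drawn with matplotlib 3.10.9.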

Additional observations from a re-analysis of the deposited data

How the results depend on the processing

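The log2 fold changes of Rfx1, Rfx2 and Rfx3 kept their direction and passed the threshold under all 12 alternatives. With 1 library left out at a time they ranged from 0.363 to 0.570 for Rfx1, 1.30 to 1.53 for Rfx2 and 0.367 to 0.436 for Rfx3. Over the 7 members and 12 alternatives, 79 of 84 values kept direction and side of the threshold. Rfx7 kept its direction but did not pass in DESeq2 (-0.15), and with 1 library left out it ranged from -0.157 to -0.143 and passed without a wild-type library but not without a Foxn3KO library; the cause was not tested. Rfxank ranged from -0.258 to -0.153 with 1 library left out and passed without wild-type replicate 1. Rfxap ranged from -0.0463, without Foxn3KO replicate 1, to 0.112. Across all genes, 3795 were called. DESeq2 called 2437, and leaving out 1 library gave 2323 to 5068, the lower counts being 2330 without Foxn3KO replicate 1 and 2323 without Foxn3KO replicate 2. The correlation of replicate differences between the groups was -0.00825 across 17300 genes, which gave no sign that shared numbers pair the samples. The wild-type-labelled libraries also differed in sex-linked and lens transcripts, so this value cannot exclude a pairing. With the replicate block 4222 genes were called, and the block changed no member's call (Rfx2 1.42, Rfx7 -0.152, Rfxank -0.203). Calls in the gene lists with 1 library left out, alternatives chosen after seeing the data, stand beside each list; the cilia list had 14 to 17 of 17 and the MHC class I list 0 to 2 of 8. Depth limits what can be said of MHC class II genes and Rfx8, and 3 counts correspond to 0.103 to 0.134 CPM.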

Other observations

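The position of each member among all 18471 genes was also read from the FPKM values. Rfx2 stood above 41.5% and 43.9% of genes in the wild-type-labelled libraries and above 62.3% and 63.8% in the Foxn3KO-labelled ones. Rfx1 went from 58.6% and 62.3% to 68.7% and 67.6%, and Rfx3 from 59.6% and 58.9% to 65.3% and 66.6%. Rfxap stayed between 73.2% and 75.9% in all 4 libraries. Rfx5 stood at 46.2% and 46.5% against 43.5% and 44.0%, and Rfxank at 52.5% and 54.2% against 49.6% and 50.3%. Rfx7 stood at 66.9% and 66.8% against 63.9% and 63.6%. In the Foxn3KO-labelled libraries, Rfx2 was thus above Rfx5 and Rfxank, overlapped Rfx7, and was still below Rfx1, Rfx3 and Rfxap.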
